A study of Mus musculus with 12 samples.

Results

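Secondary-type piRNAs are described here by sequence alone, as the rows of the deposited piRNA table that are 26 to 32 nt long, start with a base other than U and carry A at position 10, counted from 1 at the 5' end. Of the 1018402 sequences in the table, 717301 were 26 to 32 nt long and 71851 met this rule. They are called non-U A10 sequences below. The first base was A in 29541 of them, C in 21992 and G in 20318. The other sequences of the same length comprised 156596 with a 5' U and A10, 365907 with a 5' U and no A10, and 122947 with neither. The RNA came from the testis of male C57BL/6 mice at an age of 4 months. Its small RNAs (17 to 40 nt) were sequenced either untreated or after sodium periodate (NaIO4) oxidation. Each treatment was made at inputs of 10, 50 and 100 ng of total RNA with 2 technical replicates, which gave 6 groups of 2 libraries. All 12 libraries were made by the low-input method that the labels call 10ng-seq, with spike-in RNA in amounts proportional to the input. The sources used here do not give the number of mice behind the RNA, and because the replicates were technical every p-value measures the spread between libraries and not between animals.

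Periodate attacks the neighbouring 2' and 3' hydroxyls at an RNA's 3' end and so blocks the ligation of an adapter, whereas a 2'-O-methylated end is spared. piRNAs bind PIWI proteins in germ cells, where they silence transposons and regulate transcripts of meiotic and haploid cells, and the methyltransferase HENMT1 adds the 2'-O-methyl group to their 3' ends. In the ping-pong cycle a PIWI protein guided by a piRNA with a 5' U cuts its target opposite guide bases 10 and 11, and the 3' cleavage product becomes a new, secondary piRNA. Such a piRNA overlaps its guide by 10 bases at the 5' ends and has A at position 10 opposite the guide's U. In the adult mouse testis most piRNAs are pachytene piRNAs, which are cut from long single-stranded precursors with little ping-pong. The A at position 10 can therefore also be there by chance.

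The sequences on which the results turn are given 5' to 3' with T for U, as in the deposited table. Each is named by its first 6 bases and its length, with base 1 and base 10, which define the class, in capitals. The 8 most abundant before oxidation were the following.
aacact31: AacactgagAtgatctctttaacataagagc
ctccag32: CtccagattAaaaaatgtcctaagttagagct
atactc29: AtactcaacAggaccaagatttttcatct
gaccat29: GaccatttcActcagactgtaaccatgac
ctccag31: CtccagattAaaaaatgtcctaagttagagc
atgcat31: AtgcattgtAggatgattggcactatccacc
aacact29: AacactgagAtgatctctttaacataaga
aacttg30: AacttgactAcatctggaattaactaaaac

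The next 4 had the deepest falls after oxidation among the sequences that can be printed, and the 6 after them had the steepest rises.
gtgaga28: GtgagacagAagggcacgcctacggccc
gatttc30: GatttctgtAtgcattttgatcaagtccct
agagtc30: AgagtcatcAgagaagagggaacctcaact
atacgt30: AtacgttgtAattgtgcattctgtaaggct
ctcaaa30: CtcaaagccAcagttggttcatgtagatgt
atctaa30: AtctaaagcAagactgtttaattatgcata
aaacag30: AaacagtaaAagatagaactcttcacacga
aacaca30: AacacatggActagaaattaaaccaaagta
gcttct30: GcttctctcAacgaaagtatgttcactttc
caattt32: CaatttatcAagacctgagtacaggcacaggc

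In 3 further sequences the change depended most on the amount of RNA.
agaatt30: AgaattcacActggagaaaaacgctatgag
gtggat29: GtggatcatAatggtggttaaactgtctt
cattga30: CattgagaaAcaaaaattaagttagaactt

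Pairs that could be ping-pong partners are shown with the 10 complementary bases at their 5' ends in capitals. The sequence without a 5' U stands first in each pair and its 5' U partner second.
aacttg30: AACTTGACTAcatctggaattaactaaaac
tagtca30: TAGTCAAGTTggcaaccaagaattagcacg
atctgt30: ATCTGTGAAAtgagggagttggactagagt
tttcac29: TTTCACAGATgaggaaactgaagcttagg
aacaca32: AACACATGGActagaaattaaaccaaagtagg
tccatg29: TCCATGTGTTgggattgtctggtcttgtt

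The deposited values are in RPM, a read count scaled to the total of its library, and 1 read was worth 0.299 to 0.520 RPM in the 12 libraries. Libraries held 54681 to 118924 reads of non-U A10 sequences, with the lowest 2 totals in the libraries oxidized at 10 ng. The labelled tissue was checked by microRNAs before oxidation. All 5 germ-cell microRNAs of the list used were present and summed to 36375 to 43887 RPM. The Sertoli-cell miR-202-5p stood at 62.1 to 191 RPM and the smooth-muscle miR-143-3p at 8933 to 13611 RPM, with miR-145a-5p at 3.49 to 15.8 RPM. Lists for striated muscle, brain and liver summed to 57.9 to 130, 4.36 to 8.43 and 0.305 to 6.07 RPM. The blood-cell list summed to at most 2.70 RPM, with miR-223-3p at 0 in all libraries. Whether these other cells contributed to any result below was not tested.

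As a class, non-U A10 sequences took a smaller share of piRNA-length RNA after oxidation than before it. They held 4.71% and 4.74% of the RPM of all sequences of 26 to 32 nt in the untreated libraries from 10 ng, 4.81% and 4.86% from 50 ng, and 4.78% and 4.72% from 100 ng. After oxidation the shares were 3.53% and 3.74% from 10 ng, 4.22% and 4.00% from 50 ng, and 4.32% and 4.33% from 100 ng. All 6 oxidized libraries lay below all 6 untreated ones, and the gap was widest at 10 ng. The mean share was 4.77% ± 0.0575 (SD, n = 6) before and 4.02% ± 0.331 (SD, n = 6) after oxidation. The mean log2 ratio over inputs was -0.25 (exact 2-sided permutation within inputs, p = 0.00926, the smallest the arrangements can give, Benjamini-Hochberg adjusted p = 0.0123 over 4 classes). The log2 ratio was -0.38 with 10 ng, -0.24 with 50 ng and -0.13 with 100 ng. The sequences with neither mark fell by 0.14 on the same scale and those with a 5' U and A10 by 0.03, whereas those with a 5' U and no A10 rose by 0.04. Only the class described here and that with a 5' U and no A10 kept the sign of these changes in summed RPM. These 4 shares sum to 100% and so are not independent. Among sequences with a mean of at least 5 RPM the log2 ratio of the class was -0.076 (exact permutation, adjusted p = 0.0123).

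The number of distinct sequences of the class was also lower after oxidation. Before oxidation 12722 and 12348 non-U A10 sequences had at least 1 read from 10 ng, 17146 and 19742 from 50 ng, and 19404 and 19394 from 100 ng. After oxidation the numbers were 1912 and 1301 from 10 ng, 8240 and 7226 from 50 ng, and 10507 and 9356 from 100 ng. With every library thinned to 50000 reads of the class, 10382 to 13216 sequences would be expected in the untreated libraries, 1290 and 1884 in the libraries oxidized at 10 ng and 6801 to 8357 in the other 4. Sequences with 1 or 2 reads made up 40.2% to 72.2% of those detected before oxidation, 8.94% and 10.8% after it at 10 ng, and 24.5% to 33.03% after it at the higher inputs. Of the distinct sequences of 26 to 32 nt detected, 7.87% ± 0.239 (SD, n = 6) were of this class before and 5.06% ± 1.06 (SD, n = 6) after oxidation, a log2 ratio of -0.66 (exact permutation within inputs, p = 0.00926). In the whole class 47715 sequences occurred in 1 library only and 226 occurred in all 12.

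**Figure D1:**
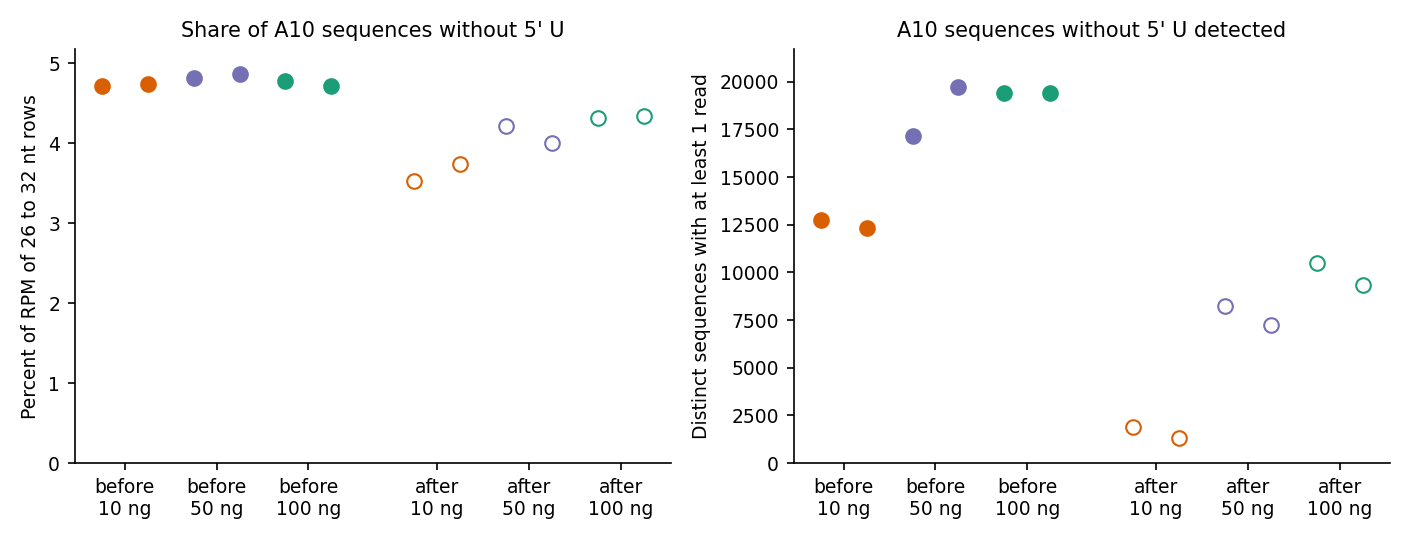
Share of non-U A10 sequences in the RPM of all sequences of 26 to 32 nt (left, percent) and number of them with at least 1 read (right), one point per library, filled before and open after oxidation, by input on the horizontal axis. All 6 oxidized libraries lie below the 6 untreated ones in both plots, and the 2 oxidized libraries of 10 ng, with 1912 and 1301 sequences, lie lowest.

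Summed RPM did not separate the treatments as the share did. The class summed to 33752 RPM ± 493 (SD, n = 6) before and 32504 RPM ± 3350 (SD, n = 6) after oxidation (exact permutation within inputs, p = 0.296). The sum was lower after oxidation at 10 ng, with 28292 and 28418 RPM against 33655 and 33755 RPM, and higher at 100 ng, with 35531 and 35212 RPM against 33576 and 33018 RPM. Against the methylated spike-in RNA, which also withstands periodate, the class held 2.79 ± 0.344 reads per spike-in read before and 0.361 ± 0.142 after oxidation (SD, n = 6 each), a log2 change of -3.05. On that scale the other 3 classes changed by -2.94 to -2.76.

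By share of RPM within the class, the first base shifted slightly and the 3' end more, the latter in sums that include the abundant ctccag32. Sequences that start with G made up 25.3% to 29.1% of its RPM before and 22.9% to 27.5% after oxidation, and were lower after it at every input, by 2.00 percentage points on average (exact permutation within inputs, p = 0.00926, adjusted p = 0.0370 over 4 measures). This was no longer called among sequences of at least 5 RPM, where the change was -0.63 points (p = 0.5, exact permutation), nor with the replicate number as a block (adjusted p = 0.125, exact permutation of signs). Those that start with A changed by 1.64 points (p = 0.0648, adjusted p = 0.130, exact permutation), those that start with C by 0.36 points (p = 0.426, adjusted p = 0.426, exact permutation). The share of 29 to 32 nt changed by 0.79 points (p = 0.120, adjusted p = 0.160, exact permutation). Sequences of 32 nt held 10.9% to 12.4% of the class before and 6.24% to 10.1% after oxidation, with no overlap between the treatments. Sequences that end in C held 38.7% to 43.0% before and 46.5% to 47.3% after, and those that end in U 35.5% to 37.0% before and 31.2% to 33.9% after, again without overlap. The values for 32 nt and for the last base are descriptions and were not tested. They are not given for the other classes, so the shift is not shown to be particular to this one. They are sums of RPM in which single abundant sequences weigh much. Counts of the sequences tested below differ from them. Of those of 32 nt 14.3% fell, the lowest share of any length. Of those that end in U 26.6% fell, against 26.2% for C and 22.8% of all tested. The sequence ctccag32 is 32 nt long and ends in U. Its mean was 2248 RPM before and 1176 RPM after oxidation, in a class of 33752 and 32504 RPM. Its RPM counts in both the share of 32 nt and that of a final U, and its fall alone lowers both. Shares without it were not computed, so a lower share of 32 nt or of a final U is not shown for the rest of the class.

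A few sequences carried much of the class. The 10 most abundant held 18.01% to 24.5% of its RPM before oxidation, and the 100 most abundant held 35.8% to 41.4%. The leading sequence, aacact31, stood at 1647 and 1540 RPM from 10 ng, 2489 and 2638 from 50 ng, and 3109 and 3031 from 100 ng before oxidation. After oxidation it stood at 594 and 638 RPM from 10 ng, 4478 and 2860 from 50 ng, and 5215 and 5189 from 100 ng. Its oxidized libraries thus lay below the untreated ones at 10 ng and above them at the other inputs. It fell at 10 ng (log2 change -1.37 ± 0.17 SE, limma-trend, adjusted p = 0.000187) and rose at 100 ng (0.76 ± 0.17 SE, adjusted p = 0.0378). Averaged over inputs its change was -0.04 ± 0.10 (SE, adjusted p = 0.754), and it was positive, at 0.62, without the 2 libraries oxidized at 10 ng. Log2 changes here and below are on the scale log2(RPM + 1), and adjusted p-values from limma-trend are Benjamini-Hochberg values over all 22726 sequences tested. The sequence matched exon sequence of 1 gene, Gm14244 (ENSMUSG00000087162.1, annotated as antisense RNA), in the sense direction at chr2:127692460-127692490 on the plus strand of GRCm38 (mm10).

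The second sequence, ctccag32, had 2279 and 2335 RPM from 10 ng, 2551 and 2477 from 50 ng, and 1976 and 1867 from 100 ng before oxidation. After oxidation it had 446 and 535 RPM from 10 ng, 1765 and 1141 from 50 ng, and 1427 and 1744 from 100 ng. All oxidized libraries lay below all untreated ones, and it fell by 1.12 ± 0.11 (SE) on the log2 scale averaged over inputs (limma-trend, adjusted p = 7.43e-05). It matched no annotated transcript. The form that is shorter by the last base, ctccag31, had 352 to 477 RPM before and 488 to 837 RPM after oxidation, with no overlap between the treatments. It rose by 0.45 ± 0.10 (SE, limma-trend, adjusted p = 0.00473) on the deposited scale, but its change was -0.08 with edgeR and TMM scaling, -0.23 with DESeq2 and -2.53 against the methylated spike-in. The 32-nt form made up 84.1% of the summed RPM from this 5' end before and 66.7% after oxidation, and the 31-nt form 15.9% and 33.2%. The 2 forms differ by a single U at the 3' end.

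Sequence gaccat29 rose at the lowest input above all. It had 319 and 243 RPM from 10 ng, 470 and 449 from 50 ng, and 549 and 591 from 100 ng before oxidation, and 1116 and 1596, 628 and 822, and 700 and 628 RPM in the same order after it. The 6 oxidized libraries lay above the 6 untreated ones. The average log2 change was 1.04 ± 0.12 (SE, limma-trend, adjusted p = 0.000172), with 2.26 at 10 ng and 0.22 at 100 ng, and it turned to -1.94 against the methylated spike-in. It matched 1 gene, 5330409N07Rik (ENSMUSG00000113927.1, of the annotation class TEC, a locus without experimental proof), on the strand opposite to the transcript, at chr12:98447235-98447263 on the plus strand.

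Sequence aacttg30 was lower in every oxidized library. It had 232 to 294 RPM before and 34.8 to 149 RPM after oxidation, and it fell by 1.46 ± 0.28 (SE, limma-trend, adjusted p = 0.00250). It matched transcripts of Gm42885 and of Grtp1, a gene for a growth hormone regulated TBC domain protein, in the sense direction, in the latter within a UTR. Sequences atactc29 and aacact29 behaved as aacact31 did, with oxidized libraries lower at 10 ng and higher at 50 and 100 ng. In the order of inputs atactc29 had 362 and 337, 583 and 526, and 687 and 721 RPM before oxidation, and 190 and 233, 921 and 780, and 1035 and 1017 RPM after it. Sequence atgcat31 had 345 to 441 RPM before and 392 to 635 RPM after oxidation, ranges that overlap, and a change of 0.16 ± 0.11 (SE, limma-trend, adjusted p = 0.282). Among sequences that start with G, gaaagt28 was second to gaccat29, with 152 to 306 RPM before and 50.4 to 281 RPM after oxidation. It fell by 0.66 ± 0.13 (SE, limma-trend, adjusted p = 0.00299) on average, but its change was 0.22 without the libraries oxidized at 10 ng.

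**Figure D2:**
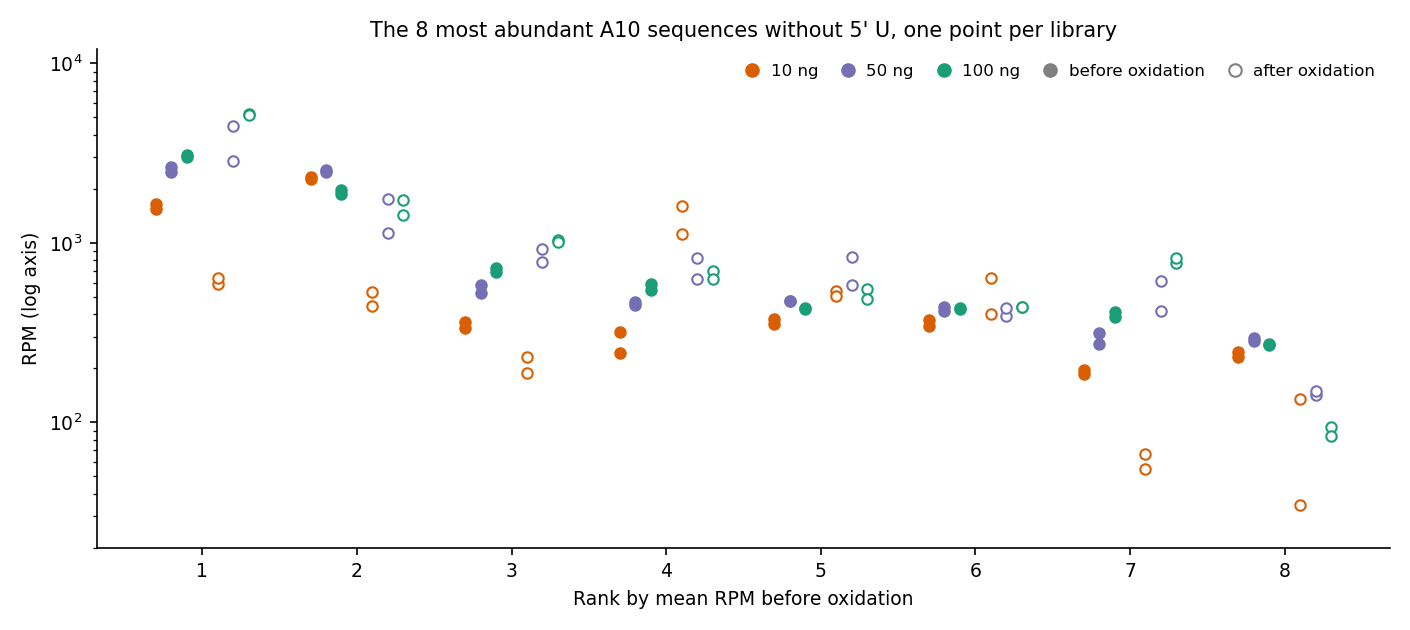
RPM (log axis) of the 8 non-U A10 sequences that were most abundant before oxidation, one point per library, colour by input, filled before and open after oxidation. From rank 1 to 8 they are aacact31, ctccag32, atactc29, gaccat29, ctccag31, atgcat31, aacact29 and aacttg30, and the open points of 10 ng at ranks 1, 3 and 7 lie below the filled ones while those at rank 4 lie above them.

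Sequences that share a 5' end and differ in length did not always move together. From the 5' end of aacact31, the 31-nt form held 84.4% of the summed RPM before and 84.2% after oxidation, and the 29-nt form 10.4% and 12.2%. The 30-nt form between them, with 16.1 to 25.6 RPM before oxidation, had 0.462 and 0.520 RPM after it from 10 ng, 37.7 and 15.1 from 50 ng, and 15.8 and 28.1 from 100 ng, and fell by 1.22 ± 0.28 (SE, limma-trend, adjusted p = 0.00652). From the 5' end of atactc29, the 29-nt form held 75.8% before and 82.6% after oxidation and the 28-nt form 21.4% and 15.5%.

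Among the sequences tested below, 309 came from 111 5' ends (the first 20 bases) with at least 2 tested lengths. In 70 of these 111 all lengths had the same sign of change, and in 9 at least 1 length rose while another fell. One of them was the 5' end of gaccat29. Its forms of 28, 29 and 31 nt rose on the deposited scale, with log2 changes of 1.09, 1.04 and 1.87, the 30-nt form fell by 0.54, and the 32-nt form had a change of -0.43 (adjusted p = 0.0936, limma-trend). At the 5' end of aacttg30 the forms of 27, 28, 29 and 30 nt fell by 1.97, 2.17, 1.76 and 1.46, the 31-nt form had a change of 0.17 and the 32-nt form rose by 1.37, again on the deposited scale. The median span of log2 change within a 5' end was 1.02.

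**Figure D3:**
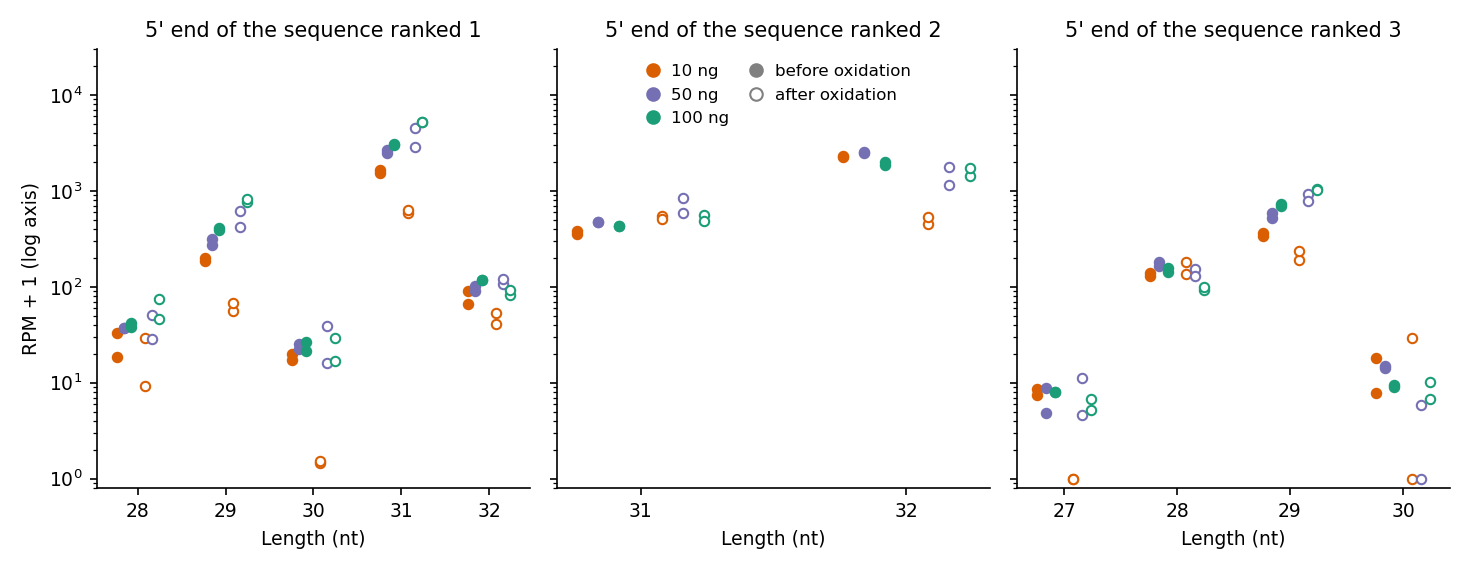
RPM + 1 (log axis) of the tested length forms from the 5' ends of aacact31, ctccag32 and atactc29, by length in nt, one point per library, colour by input, filled before and open after oxidation. In the middle plot the oxidized libraries lie above the untreated ones at 31 nt and below them at 32 nt.

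For tests of single sequences, a mean of at least 5 RPM over the 12 libraries was required, which 603 of the 71851 sequences met, or 0.839%. They held 50.8% to 56.4% of the RPM of the class before oxidation and 51.6% to 63.6% after it. A sequence with a mean below 5 RPM under 1 treatment, or no reads there, could pass only through the other treatment. Its means thus had to differ, and the counts below describe the 603 and not the class. The lowest mean inside the limit was 5.00 RPM and the highest outside it 4.99 RPM.

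Averaged over inputs, more of these sequences fell than rose after oxidation. Of the 603, 95 rose and 175 fell at an adjusted p below 0.05 (limma-trend), or 15.8% and 29.02%, against 21.2% and 22.8% of all 22726 sequences tested, where 44% were called in either direction. The median log2 change was -0.43 over the 603 and -0.14 over all tested. The sequences with neither mark had a median of -0.42, those with a 5' U and A10 -0.20 and those with a 5' U and no A10 -0.06. The 603 and the sequences with neither mark were thus close to each other.

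These values depended on scaling and on the 2 libraries oxidized at 10 ng. The median over all tested sequences was -0.34 with libraries centred on their medians, -0.49 with edgeR and TMM scaling, -0.64 with DESeq2 and -2.59 against the methylated spike-in. The median of the 603 lay below it by 0.21 to 0.42 under these 4 scalings. Rises and falls among the 603 numbered 62 and 267 with edgeR and TMM scaling, against 13.5% and 33.1% of all tested. With DESeq2 they numbered 65 and 295, against 14.3% and 38.8%, and against the spike-in 3 and 543, where 0.77% and 87.3% of all tested were called. Without the 2 libraries oxidized at 10 ng 107 rose and 87 fell, against 23.8% and 13.5% of all tested, and the medians were 0.11 and 0.23. Of the 95 rises 68 were called again there, and of the 175 falls 71. The remaining libraries also made the first calls, and the share called again over all tested was not counted. Among the 54 sequences with a mean of at least 50 RPM 19 rose and 15 fell, against 29.1% and 32.5% of the 1789 tested at that level, and the median was 0.05 over these 54 and -0.18 over all tested at that level.

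**Figure D4:**
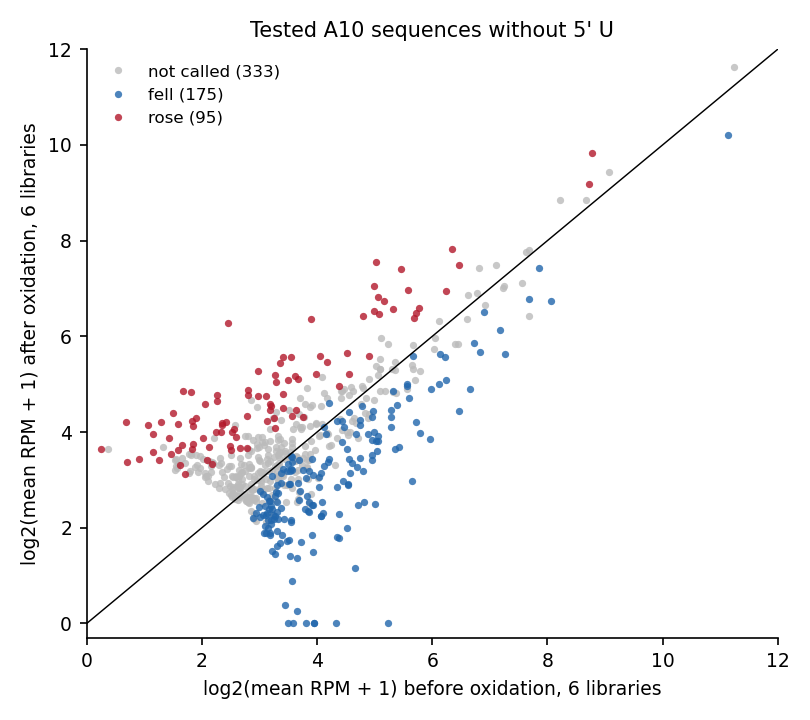
Mean level after against mean level before oxidation, both as log2(RPM + 1) over 6 libraries, for the 603 tested non-U A10 sequences, coloured by the limma-trend call averaged over inputs (95 rose, 175 fell, 333 were not called). The line marks equal levels, and the points along the bottom are the 7 sequences with no read in any oxidized library.

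With 1 spread shared by all groups, calls were most numerous at the lowest amount of RNA. At 10 ng 95 of the 603 rose and 243 fell (limma-trend), against 21.4% and 31.5% of all tested (52.9% in either direction). At 50 ng 31 rose and 21 fell, against 5.77% and 3.44% (9.21% together). At 100 ng 8 rose and 15 fell, against 1.91% and 2.16% (4.07% together). For 10, 50 and 100 ng the median log2 change of the 603 was -1.28, 0.04 and 0.14, and that of all tested sequences was -0.69, 0.20 and 0.25. The effect of oxidation differed between inputs for 177 of the 603 (moderated F test of limma-trend over both interaction terms), against 23.1% of all tested. The log2 change at 10 ng lay below that at 100 ng for 149 of the 177 and above it for the other 28, against 18.1% and 5.03% of all tested.

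Replicates agreed least in the libraries in which most sequences moved. Across the 603 sequences, Pearson's r between the 2 replicates (over log2 values, as a description across sequences of shared libraries) was 0.88, 0.94 and 0.95 before oxidation at 10, 50 and 100 ng, and 0.54, 0.80 and 0.88 after it. After oxidation at 10 ng 170 of the 603 had no read in either replicate and 205 had none in 1 of the 2. Their part in the calls at 10 ng was not tested. With a spread for each group in place of a shared one, 31 rose and 104 fell at 10 ng, against 5.57% and 14.6% of all tested. At 100 ng 61 rose and 59 fell, against 15.6% and 9.35%. Calls among the 603 then numbered 135, 107 and 120 at 10, 50 and 100 ng. Over all tested sequences they numbered 4589, 4324 and 5667, so the order of inputs depended on the spread used.

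Before oxidation the input changed few of these sequences. Between 10 and 100 ng 13 of the 603 differed, 6 higher and 7 lower at 10 ng (limma-trend), against 1.06% and 0.744% of all tested, or 1.8% in either direction. With a spread for each group 141 differed, against 22.6% of all tested. The smallest p belonged to gaggtt28, with 194 and 203 RPM from 10 ng, 81.4 and 94.99 from 50 ng, and 55.3 and 51.2 from 100 ng (log2 difference 1.88 ± 0.21 SE, adjusted p = 0.00748, limma-trend). After oxidation its level was 40.6 to 61.9 RPM at all inputs. After oxidation 273 of the 603 differed between 10 and 100 ng, 55 of them higher at 10 ng, against 41.4% of all tested, of which 12.5% were higher and 28.8% lower. The smallest p there belonged to aacact29, with 55.0 and 66.5 RPM at 10 ng and 769 and 826 RPM at 100 ng (log2 difference -3.70 ± 0.20 SE, adjusted p = 1.08e-05, limma-trend).

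The 3 sequences with the strongest dependence on input were nearly absent after oxidation at 10 ng alone. Sequence agaatt30 had 85.4 and 92.6 RPM from 10 ng, 62.0 and 60.0 from 50 ng, and 31.7 and 35.4 from 100 ng before oxidation. After oxidation it had 0.462 and 0.520 RPM, which is 1 read in each library, then 23.0 and 19.1 from 50 ng, and 16.7 and 20.5 from 100 ng. It fell at 10 ng (-5.91 ± 0.30 SE) and at 50 ng (-1.50 ± 0.30 SE), and its change at 100 ng was -0.82 ± 0.30 SE (limma-trend, adjusted p = 7.29e-06, 0.0162 and 0.194). Sequence gtggat29 had 40.7 and 55.5 RPM at 10 ng before oxidation and no read after it, and at 100 ng it had 22.6 and 20.1 RPM before and 19.1 and 24.0 after. Sequence cattga30 had 29.6 and 29.8 RPM at 10 ng before oxidation and no read after it, and at 100 ng it had 44.9 and 45.7 RPM before and 54.4 and 42.0 after. Both fell at 10 ng, by 5.60 and 4.94, and their log2 changes at 100 ng were 0.01 and 0.08.

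The deepest falls were of sequences that left no read after oxidation at any input. Sequence gtgaga28 had 48.2 and 34.9 RPM from 10 ng, 42.3 and 35.2 from 50 ng, and 31.4 and 26.5 from 100 ng before oxidation, or 638 reads in all, and none in the 6 oxidized libraries. Taking a floor of 3 reads over those 6 libraries, it was at least 189-fold lower. It matched the hairpin gene of the microRNA Mir7217 and the long non-coding RNA Gm49794 that overlaps it, at chr17:27355750-27355777 on the plus strand. Mature microRNAs lack the 2'-O-methyl group as a rule. Sequence gtgaga28 is 28 nt long, and a match to the hairpin gene alone does not make it a mature microRNA. What it is was not tested, and neither was the cause of its loss. Sequences gatttc30, agagtc30 and atacgt30, with mean levels of 19.2, 14.4 and 12.9 RPM before oxidation, also had no read after it and were at least 99.6, 75.0 and 69.4-fold lower. They matched no annotated transcript.

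Of the 603, 7 had no read in any oxidized library, and these could pass the limit only through the untreated ones. Another of them, aaccat31, fell from 14.5 RPM (at least 76.8-fold) and matched transcripts of 6 genes. Sequence gcgcag29 fell from 24.3 to 1.23 RPM (log2 change -3.82 ± 0.35 SE, limma-trend, adjusted p = 5.58e-05) and matched transcripts of 71 genes, so its reads cannot be assigned to one. It too passed the limit only through the untreated libraries, so a lower mean after oxidation was fixed and its p-value is no support for a fall. Of the 175 sequences that fell, 114 had a lower mean after oxidation at each input. This is a count among sequences called on the same libraries, and the share over all tested was not counted.

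The 6 steepest rises were of sequences with a mean below 5 RPM before oxidation, which passed the limit only through the oxidized libraries. A higher mean after oxidation was thus fixed by the limit, and their p-values are no support for a rise. Sequence ctcaaa30 had 2.86 and 1.45 RPM from 10 ng, 3.10 and 5.38 from 50 ng, and 8.77 and 5.49 from 100 ng before oxidation. After it the levels were 135 and 130 RPM from 10 ng, 35.2 and 69.0 from 50 ng, and 33.8 and 57.5 from 100 ng. The groups did not overlap, and the mean was 17.0-fold higher after oxidation (log2 change 3.75 ± 0.28 SE, limma-trend, adjusted p = 2.03e-05). On the deposited scale its 31-nt and 32-nt forms rose too, by 2.51 and 1.69, while the 29-nt form had a change of -0.49 (adjusted p = 0.519, limma-trend).

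Sequence atctaa30 rose at each input, from 1.43 and 0.726 RPM to 26.8 and 29.6 at 10 ng, from 2.71 and 1.79 to 20.6 and 30.7 at 50 ng, and from 4.05 and 2.44 to 28.98 and 31.3 at 100 ng. The log2 changes were 3.83, 3.02 and 2.90, and the mean was 12.8-fold higher (average log2 change 3.25 ± 0.25 SE, limma-trend, adjusted p = 2.31e-05). Sequences aaacag30, aacaca30, gcttct30 and caattt32 had means of 1.10, 1.83, 2.53 and 1.44 RPM before and 16.8, 20.03, 27.7 and 17.6 RPM after oxidation, and in each the 6 oxidized libraries lay above the 6 untreated ones. Against the methylated spike-in all 6 log2 changes were smaller, at 0.33 to 1.03, and aacaca30, gcttct30 and caattt32 no longer passed the test (limma-trend, adjusted p = 0.239, 0.445 and 0.0782). None of the 6 matched an annotated transcript. Of the 95 sequences that rose, 91 had a higher mean after oxidation at each input. This too is counted among sequences called on the same libraries, without a share over all tested.

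Calls were spread over all lengths and first bases. Of the 154 tested sequences that start with C 29 rose and 31 fell, of the 270 with A 42 and 83, and of the 179 with G 24 and 61. By length, falls made up 39.5% of the 38 sequences of 26 nt and 14.3% of the 35 sequences of 32 nt, and rises 13.2% and 17.1%. By last base, 28 of the 62 that end in G fell, or 45.2%, against 26.2% to 30.6% for the other bases. Of all 22726 sequences tested 21.2% rose and 22.8% fell. Their shares by first base, length and last base were not counted, so these differences are not shown to be particular to the class. They are counts, and no test was made of them.

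Most of the class could not be assigned to an annotated transcript. Without mismatch, 16254 of the 71851 sequences (22.6%) matched a transcript of GENCODE M21, and 11725 of these matched a single gene, 9278 in the sense and 2447 in the antisense direction. In the other 3 classes 20.5% to 24.5% of the sequences matched. By RPM before oxidation the matched sequences held 24.5% of the class, against 13.2% to 14.5% in the other 3 classes, and the 6 tested sequences of Gm14244 held 2864 RPM of the 33752 RPM of the class. Among the 603 tested, 91 were matched, and 11 of these rose and 29 fell, or 12.1% and 31.9%. Of the 512 unmatched 84 rose and 146 fell, or 16.4% and 28.5%, and of all tested 21.2% and 22.8%.

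Groups of tested sequences came from a few genes. The pseudogene Zfp389 (ENSMUSG00000082396.4) gave 8, all in the sense direction between 21504957 and 21504989 on the minus strand of chromosome 13, from 2 overlapping 5' ends. Of these 7 fell, by 1.37 to 2.74, and the other, agaatt27, had a change of -0.88. Together they held 255 RPM before and 91.0 RPM after oxidation. The non-coding gene Gm49794 gave 10 sequences from 5 5' ends, of which 1 rose and 2 fell, and Gm5878 gave 7 from 5 5' ends, of which 3 fell. Gm14244 gave 6 sequences, the forms of aacact31 among them, with 2864 RPM before and 3771 RPM after oxidation. The 5 sequences antisense to 5330409N07Rik held 752 RPM before and 1348 RPM after it. Sequences of 1 gene that overlap are not independent of each other.

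The rule takes the A at position 10 as a mark of ping-pong, so the table was searched for 5' U partners. The first 10 bases of a non-U A10 sequence were compared with the reverse complements of the first 10 bases of all 5' U sequences of 26 to 32 nt. For comparison the same was done with the 10 bases that end at a later A, which stand for overlaps of 11 to 20 bases. Of the whole class 73.8% had such a partner at 10 bases, against 71.0% to 75.7% at the longer overlaps. This method cannot separate them, because 5' U sequences already held 44.5% of all possible starts. Against 5' U sequences with a mean of at least 5 RPM, 9.797% of the class had a partner at 10 bases and 7.48% to 8.71% at the longer overlaps.

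Among the 603 tested sequences the share at 10 bases lay farther above those at longer overlaps. There 129, or 21.4%, had a 5' U partner of at least 5 RPM at 10 bases, against 4.35% to 13.3% at overlaps of 11 to 20 bases. With each 5' end counted once the figures were 17.5% (71 of 405 ends) and 4.8% to 12.9%. The tested sequences with neither mark had 4.72% to 10.0% at the longer overlaps. No test was made of these shares. Of the 129 partnered sequences 29 rose and 46 fell after oxidation, and of the other 474 tested sequences 66 rose and 129 fell. These are 22.5% and 35.7% with a partner and 13.9% and 27.2% without, against 21.2% and 22.8% of all tested. The median log2 change was -0.43 with a partner and -0.44 without.

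The pair with the most abundant rarer partner joined aacttg30, described above, with tagtca30. The 5' U sequences with the complementary start numbered 11 here and 5 and 4 in the next 2 pairs. Each named partner is thus 1 of several possible ones. Whereas aacttg30 matched annotated transcripts, tagtca30 matched none on either strand. The partner had 1676 and 1375 RPM from 10 ng, 1710 and 1721 from 50 ng, and 2816 and 3210 from 100 ng before oxidation. After it the partner had 209 and 168, 886 and 608, and 1662 and 1279 RPM. Both sequences of this pair fell, by 1.46 and 1.76 on the log2 scale (limma-trend, adjusted p = 0.00250 and 1.29e-05), and for the partner both oxidized libraries of 10 ng stood lowest, whereas for aacttg30 one of them did. In the next pair atctgt30 had 181 to 243 RPM before and 151 to 419 RPM after oxidation, and its partner tttcac29 105 to 145 and 59.8 to 121 RPM. Neither passed the test (log2 changes 0.05 and -0.39, limma-trend, adjusted p = 0.827 and 0.0793). In the last, aacaca32 had 26.9 to 46.6 RPM before and 28.1 to 65.1 RPM after oxidation (log2 change 0.10, adjusted p = 0.724, limma-trend), whereas its partner tccatg29 rose on the deposited scale, from 493 to 670 RPM (0.44 ± 0.09 SE, adjusted p = 0.00488). The partner tttcac29 matched 1700001L05Rik, a long non-coding RNA, at chr15:83356246-83356274 on the minus strand. No genome sequence was searched, so whether the 2 members of a pair lie opposite each other at 1 locus was not tested.

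For the sequences that matched transcripts, strands and positions were known. Among matched non-U A10 sequences 15.7% had a 5' U sequence on the opposite strand of the same transcript at an overlap of exactly 10 bases (2545 of 16254). At the other overlaps from 1 to 26 bases, each taken over the sequences with A at the end of the overlap, the share was 8.70% to 13.7%, with a median of 11.33%. Restricted to sequences that match 1 gene the share was 7.13% at 10 bases and 3.44% to 7.26% at other overlaps. By RPM before oxidation there was no peak, with 8.86% at 10 bases and 2.16% to 13.6% elsewhere. These partnered sequences were rare. The 2545 together held 660 to 777 RPM in the untreated and 184 to 252 RPM in the oxidized libraries, and 6 of them passed the limit for testing. Of the 8268 pairs none had both partners at a mean of 5 RPM or more. In the pair with the most abundant rarer partner, a 29-nt sequence that starts cagata had 3.66 to 8.53 RPM before and at most 1.89 RPM after oxidation, and its partner 7.77 to 12.9 RPM before and at most 4.88 RPM after. None of these shares was tested, so the label secondary-type was not tested either, and the sequences are named by the rule.

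**Figure D5:**
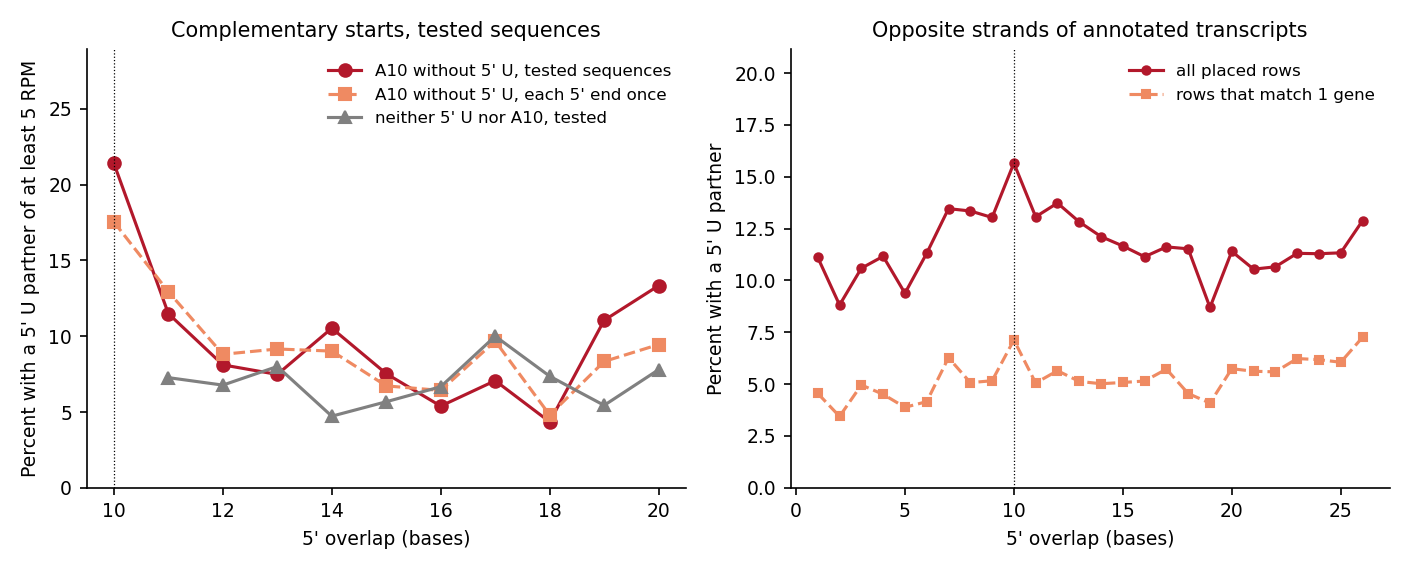
Percent of sequences with a 5' U partner by length of the 5' overlap in bases, with a dotted line at 10. On the left, partners of at least 5 RPM with complementary starts, for the tested non-U A10 sequences (21.4% at 10), for their 5' ends counted once, and for tested sequences with neither mark. On the right, partners on the opposite strand of an annotated transcript, for all matched sequences (15.7% at 10) and for those that match 1 gene (7.13%).

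Part of the class lay next to a more abundant 5' U sequence on the same strand. For 14.98% of the 71851 sequences a more abundant 5' U sequence started 1 base further downstream, and for 19.8% one started 1 base upstream, with at least 20 bases in common. At shifts of 2 to 5 bases the shares were 12.9% to 15.4% downstream and 13.4% to 17.8% upstream. Of the sequences with neither mark 16.9% and 23.6% had such a neighbour at 1 base. By RPM before oxidation the neighbours at 1 base accounted for 8.97% and 10.9% of the class. Among the 603 tested sequences 60 and 64 had one.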

How the data were processed

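The authors deposited piRNA and microRNA values as RPM and spike-in RNA as raw read counts, per the labels and the values themselves. Bowtie and the builds mm10 and hg38 are named in the submitters' processing notes, while versions and the role of hg38 are not given in the sources used here. From the step that 1 read makes, whole reads were recovered for 100% of the piRNA values within 0.01 of a read. The labels name no molecular identifiers, so read floors cover counting error only. Members and lists were chosen with earlier results of these data known. Where the mean reached 5 RPM, log2(RPM + 1) was fitted by limma-trend (limma 3.58.1 in R 4.3.3), taking a mean for each of the 6 groups and 1 common spread. Calls needed an adjusted p (Benjamini-Hochberg, over all 22726 sequences fitted) under 0.05. On simulated data for the contrast averaged over inputs (22726 sequences), 1.5%, 65.5% and 99.5% of changes of 1.5-fold, 2-fold and 4-fold were recovered. The simulated reads had 1 dispersion, 0.05, in all libraries and the same change at each input. In the real data 35.3% of the 603 differed beyond 4-fold between the replicates oxidized at 10 ng. These figures therefore do not give the power of the real test. Class shares were tested by exact permutation of the oxidation labels within inputs. edgeR 4.0.16 and DESeq2 1.42.0 were run on the recovered reads as alternatives. Named sequences were the 8 highest before oxidation, 6 largest falls and 6 largest rises, 2 highest per first base, 3 smallest interaction p, the smallest p between inputs before and after oxidation, and 3 pairs with the most abundant rarer partner, by complementary starts and, separately, by transcript. Transcripts were those of GENCODE M21 (GRCm38, the same assembly as mm10), searched without mismatch on both strands. No genome sequence was used, and no per-sample column was left unused.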

Additional observations from a re-analysis of the deposited data

Results flagged for a closer look

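The effect of oxidation differed between RNA inputs, by the interaction test of limma-trend, for 12 of the sequences named above. Values are the log2 change after oxidation at 10 ng minus that at 100 ng. Lower at 10 ng were gtggat29 (-5.61, adjusted p = 0.000455), agaatt30 (-5.09, adjusted p = 0.000455), cattga30 (-5.02, adjusted p = 0.000501), gaaagt28 (-3.07, adjusted p = 0.001), aacact29 (-2.64, adjusted p = 0.000848), aacact31 (-2.13, adjusted p = 0.00105), ctccag32 (-1.95, adjusted p = 0.00277), gaggtt28 (-1.64, adjusted p = 0.00656) and atactc29 (-1.27, adjusted p = 0.00258). Higher at 10 ng were caattt32 (4.08, adjusted p = 0.0105), ctcaaa30 (2.94, adjusted p = 0.0291) and gaccat29 (2.04, adjusted p = 0.00307). Both caattt32 and ctcaaa30, with means of 1.44 and 4.51 RPM before oxidation, passed the limit of 5 RPM only through the oxidized libraries. For caattt32 the mean of 9.53 RPM rested mostly on the libraries oxidized at 10 ng, with 34.2 and 37.4 RPM against at most 13.4 elsewhere. The p-values of these sequences are thus no support for a dependence on input. Sequences gtggat29 and cattga30 had no read after oxidation at 10 ng.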

How the results depend on the processing

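Technical replicates and 2 libraries a group limit these tests, and the libraries oxidized at 10 ng, with the fewest distinct sequences, weighed most. Unless stated otherwise the cause of a move was not tested. As shares, the class had a log2 change of -0.061 in summed RPM, -0.076 among sequences of at least 5 RPM, where it was still called, and -0.18 without both libraries oxidized at 10 ng, an alternative that, like a spread per group, was chosen after seeing the data and in which fewer libraries limit the exact test. Sequences with a 5' U and A10 changed by -0.015 as a share of all lengths, 0.16 in summed RPM, -0.011 among those of at least 5 RPM, 0.051 as distinct sequences and -0.0086 without those libraries. Those with a 5' U and no A10 changed by -2.76 per methylated spike-in read and 0.030 without those libraries, those with neither mark by 0.051 in summed RPM and -0.13 without them. With 1 library left out in turn the 4 changes ran from -0.26 to -0.24 for the class, -0.033 to -0.025 for a 5' U with A10, 0.041 to 0.047 for a 5' U without A10 and -0.15 to -0.12 for neither.

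Within the class, the share of 29 to 32 nt changed by 1.67 points among sequences of at least 5 RPM and -0.72 as distinct sequences. The share with A first changed by -1.46 as distinct sequences, and that with C first by -2.44 among those of at least 5 RPM, 3.22 as distinct sequences and -0.67 without the libraries oxidized at 10 ng. The fall of G first was no longer called among those of at least 5 RPM (-0.63), without those libraries (-2.20) and with the replicate block (-2.00). With 1 library left out the changes ran from 0.55 to 1.03 for 29 to 32 nt, 1.36 to 1.92 for A, 0.20 to 0.52 for C and -2.12 to -1.88 for G. The share with a 10-base partner was 9.797% against 5' U sequences of at least 5 RPM, 15.7% on opposite strands of a transcript and 7.13% where 1 gene matched.

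The number of sequences of the class that were tested differed by filter in this paragraph and the next. It was 71851 with no filter, 54 with a filter of 50 RPM and 603 otherwise. Counts with different totals are not comparable. In this section counts of calls show how they move between settings. Most stand without the share over all tested sequences and are no results about the class. Without the libraries oxidized at 10 ng, 3707 of all 22726 tested rose and 2392 fell at 50 ng, and 2031 and 1508 at 100 ng. With a spread per group 2676 rose and 1648 fell at 50 ng. Averaged over inputs, rises numbered 42 with no filter, against 2118 of all 1018402 sequences. They numbered 19 with a filter of 50 RPM, 3 against the methylated spike-in and 62 with edgeR and TMM scaling. Falls numbered 15 with a filter of 50 RPM, 543 against the spike-in, 267 with edgeR and TMM scaling, 295 with DESeq2 and 87 without the libraries oxidized at 10 ng. At 10 ng, rises numbered 53 with no filter, 20 at 50 RPM, 8 against the spike-in, 55 with edgeR, 58 with DESeq2 and 31 with a spread per group. Falls there numbered 134, 25, 503 and 104 with no filter, at 50 RPM, against the spike-in and with a spread per group. At 50 ng, rises numbered 20 with a pseudocount of 0.1, 4 with no filter, 15 at 50 RPM, 19 after centring, 1 against the spike-in, 11 with edgeR, 20 scaled to the reads of 26 to 32 nt, 57 with a spread per group and 76 without the libraries oxidized at 10 ng. Falls there numbered 2 with no filter, 5 at 50 RPM, 493 against the spike-in, 72 with DESeq2, 50 with a spread per group and 75 without those libraries. At 100 ng, rises numbered 0 with no filter and against the spike-in, 3 after centring, 2 with edgeR, 5 with DESeq2, 3 scaled to the reads of 26 to 32 nt, 61 with a spread per group and 39 without those libraries. Falls there numbered 8 with a pseudocount of 0.1, 0 with no filter, 5 at 50 RPM, 479 against the spike-in, 8 with edgeR without TMM, 41 with DESeq2, 59 with a spread per group and 47 without those libraries. The limma-trend test called 8 rises and 15 falls there, and 90 sequences had an unadjusted p below 0.05.

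Between 10 and 100 ng before oxidation 25 differed with a pseudocount of 10, 4 with no filter, 52 against the spike-in, 52 with DESeq2, 141 with a spread per group and 97 without the libraries oxidized at 10 ng. After oxidation 76 differed with no filter, 37 at 50 RPM and 88 with a spread per group. The interaction was called for 113 with a pseudocount of 10, 18 with no filter, 30 at 50 RPM and 56 with a spread per group. Of all 22726 tested, 3401 differed before oxidation without the libraries oxidized at 10 ng. With a spread per group 2928 of them differed after oxidation, and the interaction was called for 1821. Replicate numbers did not pair the libraries, since same-numbered libraries had correlations of -0.0549 to 0.01 between their deviations from the group means. With the replicate number as a block, calls numbered 84 rises and 150 falls averaged over inputs, 8 and 11 at 50 ng, 0 and 3 at 100 ng, 7 between inputs before oxidation and 81 for the interaction.

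With 1 library left out in turn, rises ran from 79 to 146 and falls from 142 to 265 averaged over inputs, both highest without replicate 1 of the libraries oxidized at 10 ng. Rises ran from 76 to 149 and falls from 203 to 326 at 10 ng, 8 to 77 and 10 to 75 at 50 ng, and 0 to 39 and 4 to 44 at 100 ng. Between inputs, calls ran from 0 to 96 before and 212 to 432 after oxidation, and from 119 to 357 for the interaction.

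Of the named sequences, aacact31 turned to 0.065 without replicate 2 at 50 ng after oxidation and 0.62 without the libraries oxidized at 10 ng. After centring, against the spike-in, with edgeR and TMM, with DESeq2 and scaled to the reads of 26 to 32 nt, atactc29 turned to -0.062, -2.84, -0.40, -0.54 and -0.047, atgcat31 to -0.045, -2.82, -0.38, -0.52 and -0.029, and aacact29 to -0.16, -2.92, -0.50, -0.64 and -0.15. Without the libraries oxidized at 10 ng atgcat31 turned to -0.0065 and gaaagt28 to 0.22. Without oxidized replicate 2 of 10 ng or replicate 1 of 50 ng aacact29 turned to -0.0024 and -0.051, and with single libraries left out it ran up to 0.14. Against the spike-in gaccat29 turned to -1.94 and ctccag31 to -2.53, and ctccag31 to -0.082 with edgeR and -0.23 with DESeq2.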
